A study of Homo sapiens with 7 samples.

Results

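The myogenic regulatory factors MYOD1, MYF5, MYOG and MYF6, the MEF2 factors MEF2A, MEF2C and MEF2D, and the ID repressors ID1, ID2 and ID3 were analyzed in RH30 cells, an established cell line of alveolar rhabdomyosarcoma (RMS). These 10 genes were chosen by name, as 4 genes of the MYOD family, 3 of the MEF2 family and 3 of the ID family, out of 57189 genes in the count table. RNAseq counts were available for 4 untreated samples and 3 samples treated for 24 h with 5 µM BV6, a Smac mimetic that targets inhibitor of apoptosis proteins. All samples carry the wild-type genotype label, and the cells were grown in the same medium with 10% FCS. BV6 samples 2, 3 and 4 each share a tag in the title with an untreated sample, which was taken to mark an experiment, although the labels do not explain the tag. Untreated sample 1 has no treated partner. Counts summed to between 54070030 and 77220882 per sample, and 9 of the 10 genes passed the filter on low counts.

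The MYOD family are basic helix-loop-helix (bHLH) transcription factors that turn cells towards skeletal muscle. MYOD1 and MYF5 act early to commit cells to the lineage, and MYOG and MYF6 act later, during terminal differentiation. They bind E-box sequences as dimers with the widely expressed E proteins. MEF2 factors are MADS-box proteins that bind A/T-rich sites next to these E-boxes and activate muscle genes together with the MYOD family. ID proteins have the helix-loop-helix but no basic region, so they capture E proteins in dimers that cannot bind DNA. RMS cells are known to express MYOD1 and MYOG, which serve as diagnostic markers, without completing muscle differentiation.

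The promoter of MYOG is shown because it is the textbook meeting point of the families, and those of ID1 and ID3 because these genes varied most between the samples. The sequences are from RefSeq (GRCh38.p14), run 5′ to 3′ on the strand of the gene and end just before the annotated transcript. Capitals mark an E-box (CANNTG) or a loose form of the MEF2 core (CTANNNNTA), both searched on both strands.
MYOG, chr1:203086013-203086262, minus strand: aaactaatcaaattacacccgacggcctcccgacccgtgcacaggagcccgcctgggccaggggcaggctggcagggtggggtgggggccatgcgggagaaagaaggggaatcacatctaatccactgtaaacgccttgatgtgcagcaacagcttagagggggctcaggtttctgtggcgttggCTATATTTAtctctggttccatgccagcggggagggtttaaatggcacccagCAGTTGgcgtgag
ID1, chr20:31605039-31605282, plus strand: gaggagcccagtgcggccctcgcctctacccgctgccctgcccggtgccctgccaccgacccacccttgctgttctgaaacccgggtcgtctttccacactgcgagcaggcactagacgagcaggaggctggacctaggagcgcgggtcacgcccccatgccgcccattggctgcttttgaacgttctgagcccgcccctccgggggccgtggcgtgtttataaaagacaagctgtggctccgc
ID3, chr1:23559502-23559751, minus strand: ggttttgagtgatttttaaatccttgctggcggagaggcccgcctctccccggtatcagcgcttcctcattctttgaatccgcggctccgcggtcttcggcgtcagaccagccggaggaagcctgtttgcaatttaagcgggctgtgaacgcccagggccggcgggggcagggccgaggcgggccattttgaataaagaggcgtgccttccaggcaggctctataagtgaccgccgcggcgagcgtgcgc
The MYOG stretch held 1 E-box, 13 to 8 bases before the start, and 1 loose MEF2 core, 65 to 57 bases before it. The stretches of ID1 and ID3 held neither. Of 35116 promoters of 250 bases, 61.8% held an E-box and 14.6% the loose MEF2 core, so the presence of these letters is common. Promoters of 9 of the 10 genes were matched. The other gene is MYOD1.

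The labelled cell type was checked first. MYOD1 and MYOG were expressed in all 7 samples, as was DES, which encodes the muscle filament protein desmin, at 768 ± 114 CPM (counts scaled to the size of the library) in untreated (SD, n = 4) and 568 ± 193 CPM in BV6-treated cells (SD, n = 3). Of 6 RMS markers including DES, TFAP2B and CDH3 had too few counts to be tested, at no more than 0.0996 and 0.279 CPM in any sample. Of the other cell types, the 8 leukocyte markers were low. They summed to 8.96 to 13.1 CPM in untreated and 6.77 to 10.8 CPM in BV6-treated samples, of which NKG7 made up most. The 6 epithelial and endothelial markers summed to 49.3 to 69.7 CPM in untreated and 27 to 59.1 CPM in BV6-treated samples, nearly all of it PECAM1. PECAM1 itself was thus not low, with means of 59.3 CPM in untreated and 40.2 CPM in BV6-treated samples. In none of these lists was a marker at 0 in every sample. As a check of the treatment, BIRC3, an NF-κB target that encodes cIAP2, was up-regulated from 2.44 ± 1.57 to 70.4 ± 27.4 CPM (edgeR quasi-likelihood test, log2 fold change 4.86, SE 0.451, Benjamini-Hochberg adjusted p = 0.00341). BV6 sample 3 stood apart, as it had the largest loading on the first principal component (-0.712, 35.9% of the variance). Its log2 CPM also fell with the GC content of the genes, by 0.33 for each 10 percentage points, against slopes between -0.0369 and 0.238 in the other libraries.

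In untreated samples, MYOD1 and MYOG were among the highest expressed genes of RH30 cells. Levels of different genes were compared per kilobase of annotated exon, scaled to the same sum in every sample. MYOD1 reached 673 ± 164 (SD, n = 4) in untreated samples, above 99.0% of the 17931 tested genes with a known length, and MYOG 353 ± 129, above 98.1%. The lowest untreated MYOD1 level (562) lay above the highest MYOG level (503), so their order held in all untreated samples. MYF5 was far lower, at 14.4 ± 2, above 53.8% of genes. MYF6 was barely detected, with 1 to 5 counts in untreated and 0 to 2 counts in BV6-treated samples, and only untreated samples 1 and 3 exceeded 3 counts, the number taken as detected.

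The repressors ID1 (114 ± 58.8 per-length units) and ID3 (91.3 ± 43.1) followed MYOG, and their ranges overlapped. Next came MEF2A at 48.9 ± 7.97, ID2 at 46.8 ± 9.36 and MEF2D at 35.1 ± 3.24, and each overlapped its neighbour in this order. MEF2C had the lowest level of the 3 MEF2 genes chosen, at 23.5 ± 6.59, with no overlap with MEF2D. MEF2B, placed here among the cofactors and named after its values were seen, had 3.52 CPM in untreated samples. Its level per length was not computed, so it has no place in this order. MEF2C has an exon union of 11755 bases, and its place depends on the length used. Dividing by the longest transcript instead, MEF2C made up 27.6% and MEF2D 28.3% of the sum of the 3 in untreated samples, against 21.5% and 33% with the exon union. By the same change, ID3 (46.2%) overtook ID1 (35.9%), whereas with the exon union ID1 (43.9%) lay above ID3 (35.9%).

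**Figure D1:**
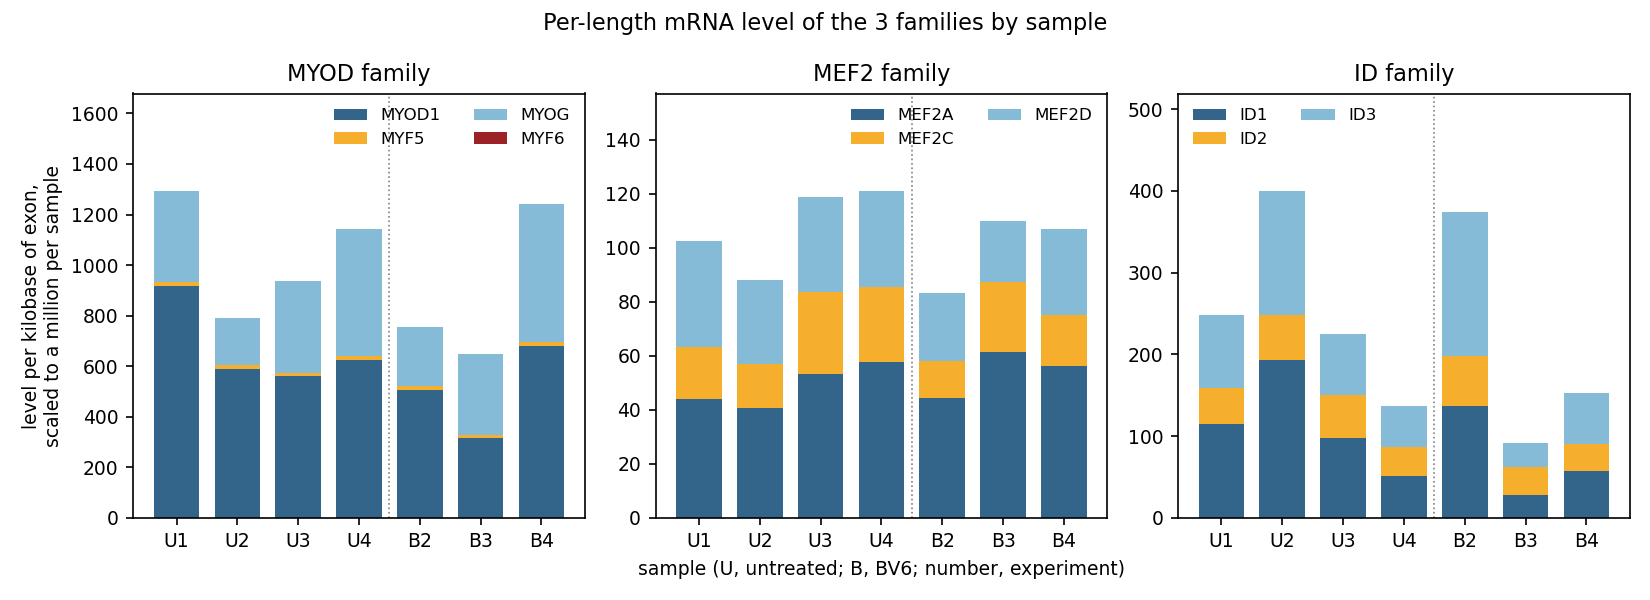
Stacked bars of the per-length mRNA level (counts per kilobase of annotated exon, scaled to the same sum in every sample) of the MYOD, MEF2 and ID families in the 4 untreated (U) and 3 BV6-treated (B) samples, numbered by experiment. MYOD1 and MYOG make up nearly all of the MYOD family, and the ID family ranges from 91.9 in BV6 sample 3 to 399 in untreated sample 2.

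The balance between the families varied between experiments in both conditions. The summed per-length level of the ID family was 248, 399, 225 and 137 in untreated samples 1 to 4, and 375, 91.9 and 153 in BV6 samples 2, 3 and 4. Divided by the sum of the MYOD family, this gave ID to MYOD family ratios of 0.192, 0.504, 0.24 and 0.12 in untreated and 0.495, 0.142 and 0.123 in BV6-treated samples. Experiment 2 had the highest and experiment 4 the lowest ratio in both conditions, and the treated and untreated ratios lay farthest apart in experiment 3. The ratio of MYOG to MYOD1 was 0.392, 0.317, 0.644 and 0.804 in untreated samples 1 to 4. In BV6 samples 2, 3 and 4 it was 0.471, 1.02 and 0.804, so it was higher than in the untreated partner in experiments 2 and 3 and equal to it in experiment 4. The levels were not corrected for GC content, which is 65.6% in MYOD1 and 57.7% in MYOG transcripts. The part of the GC trend of the libraries in this ratio was not tested.

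To test the effect of BV6, all 23124 genes with enough counts were fitted together with edgeR. None of the 9 tested genes of the MYOD, MEF2 and ID families was called at an adjusted p below 0.05, a threshold that 0.45% of all tested genes passed (104 genes). With the experiment as a replicate block, 0.943% of all tested genes (218) and again 0 of the 9 were called. At an unadjusted p below 0.05 there was 1 gene, MEF2D, where 8.39% of all tested genes passed. The other tools and filters likewise called 0 of the 9, where DESeq2 called 1.84% of all genes, limma-voom 0.471%, edgeR with RLE factors 0.454%, edgeR without a filter on low counts 0.557% and edgeR with 10 counts required in every sample 0.491%. Correcting for GC content without the block also called 0 of the 9, against 1.14% of genes. For each of the 9, treated and untreated CPM overlapped, whereas 8.83% of all tested genes showed no overlap. In these bulk samples, fewer cells that express a gene and less RNA per cell cannot be told apart.

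**Figure D2:**
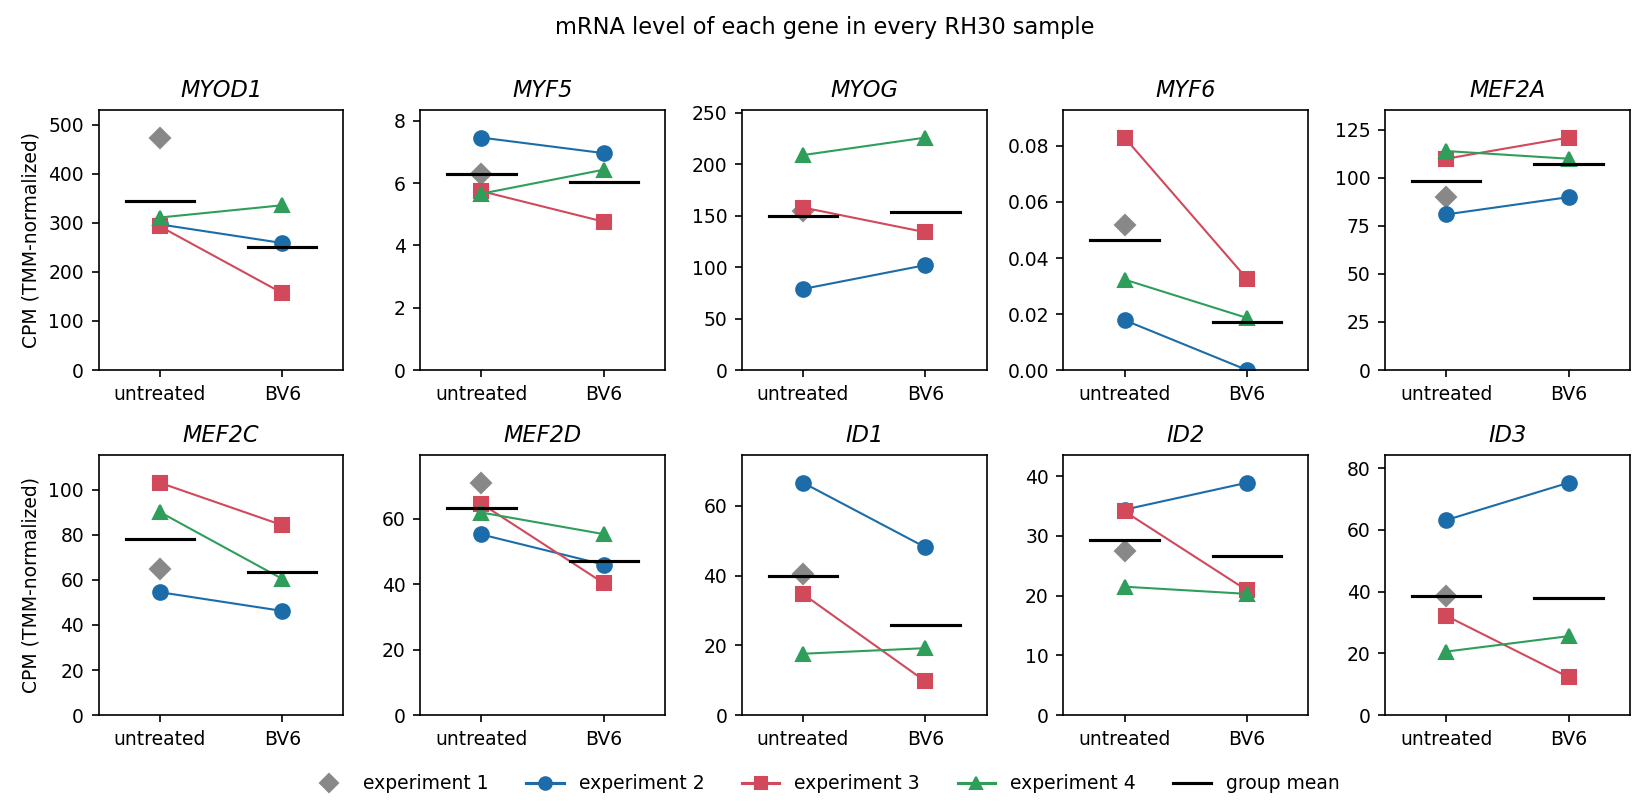
CPM of each of the 10 genes in every sample, with untreated cells on the left and BV6-treated cells on the right of each panel and each vertical axis starting at 0. Symbols mark experiments, colored lines join the samples of one experiment, and black bars are group means. The groups overlap in every panel, and for MYOG, ID1 and ID3 the distance between experiments 2 and 4 is larger than that between the group means.

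MYOD1, the commitment factor (chromosome 11, 17719571 to 17722136), had 474, 297, 293 and 311 CPM in untreated samples 1 to 4 and 259, 157 and 336 CPM in BV6 samples 2, 3 and 4. Untreated sample 1 was the highest and BV6 sample 3 the lowest, and BV6 sample 4 lay above 3 of the 4 untreated samples. The log2 fold change was -0.45 (SE 0.256, 95% interval -1.03 to 0.12, adjusted p = 0.693, edgeR). Within experiments 2, 3 and 4, BV6 minus untreated was -0.2, -0.9 and 0.11 on the log2 scale. MYOD1 transcripts are GC-rich, at 65.6%, and the difference between BV6 and untreated log2 CPM in experiment 3 fell by 0.3 for each 10 percentage points of GC content over 17931 genes. With a correction for this trend in each library, the log2 fold change of MYOD1 was -0.16 without and -0.13 with the replicate block.

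MYF5, the other early factor (chromosome 12, 80716912 to 80719671), had 6.28, 7.46, 5.74 and 5.66 CPM in untreated and 6.96, 4.76 and 6.43 CPM in BV6-treated samples. These values lay within a narrow band, and the log2 fold change was -0.06 with a 95% interval from -0.47 to 0.36. MYF6, its neighbor on the same chromosome (80707634 to 80709474), did not pass the filter on low counts. Without that filter its adjusted p was 0.787 (edgeR), and at so few counts no fold change is given.

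MYOG, the differentiation factor (chromosome 1, 203083129 to 203086012), had 155, 78.8, 158 and 209 CPM in untreated samples 1 to 4 and 102, 134 and 226 CPM in BV6 samples 2, 3 and 4. In both conditions experiment 2 was lowest and experiment 4 highest. The untreated samples alone differed 2.66-fold, and the SD of their log2 CPM (0.599) was larger than that of 88.8% of tested genes. The log2 fold change with BV6 was 0.03 (SE 0.33, adjusted p = 0.985, edgeR), with an interval of 0.613- to 1.71-fold. With the replicate block, this interval narrowed to 0.871- to 1.29-fold around a log2 fold change of 0.08. These data leave room for a change of MYOG within these bounds, and the smallest change that could be called was not computed.

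Among the MEF2 genes, MEF2D and MEF2C were lower in the treated sample of all 3 experiments, a pattern that 17.8% of all tested genes showed. MEF2D (chromosome 1, 156463727 to 156500779) had 71, 55.2, 64.6 and 61.9 CPM in untreated and 46, 40.3 and 55.3 CPM in BV6-treated samples. The groups overlapped only by the highest BV6 sample (55.3 CPM) and the lowest untreated one (55.2 CPM). The log2 fold change was -0.42 (SE 0.138, 95% interval -0.73 to -0.11), with an unadjusted p of 0.0128 and an adjusted p of 0.392 (edgeR). Within experiments 2, 3 and 4, the differences were -0.26, -0.68 and -0.16. By exact permutation (two-sided) p was 0.114, and 4 against 3 samples cannot go below 0.0571.

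MEF2C (chromosome 5, 88717117 to 88904257) had 64.9, 54.5, 103 and 90 CPM in untreated and 46.2, 84.2 and 60.4 CPM in BV6-treated samples. Experiment 3 had the highest and experiment 2 the lowest level in both conditions, and the differences within experiments 2, 3 and 4 were -0.24, -0.29 and -0.58. Its log2 fold change was -0.3 (SE 0.253, adjusted p = 0.787) without the block and -0.37 (SE 0.101, adjusted p = 0.2) with it (both edgeR). MEF2A (chromosome 15, 99565417 to 99716488), the highest of the 3 per length, had 89.9, 81, 110 and 114 CPM in untreated and 90, 121 and 110 CPM in BV6-treated samples. It was the only one of the 3 with a positive log2 fold change (0.12, 95% interval -0.22 to 0.46, adjusted p = 0.855, edgeR).

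The replicate block together with the GC correction was the single fit, of 16 run, in which any of these genes passed. It called 6.65% of the 17931 genes with a known GC content (1193 genes). Among them were MEF2C, with a log2 fold change of -0.4 (SE 0.0677, adjusted p = 0.00566), and MEF2D, with -0.32 (SE 0.0642, adjusted p = 0.0151, both edgeR). The GC content was known for only 77.5% of the tested genes, so this fit does not cover the others, although it was known for all 9 genes here. The GC trend was estimated from the same libraries that were tested, and this fit was not among those tried on simulated counts. MEF2C overlaps MEF2C-AS1 and MEF2C-AS2 on the opposite strand, with 677 shared exonic bases, and MEF2A overlaps LYSMD4 with 792. MEF2C-AS2 had 196 to 444 counts per sample against 2592 to 6209 for MEF2C, and the handling of strand in the counting was not named in the sources used here, so their counts can share reads.

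**Figure D3:**
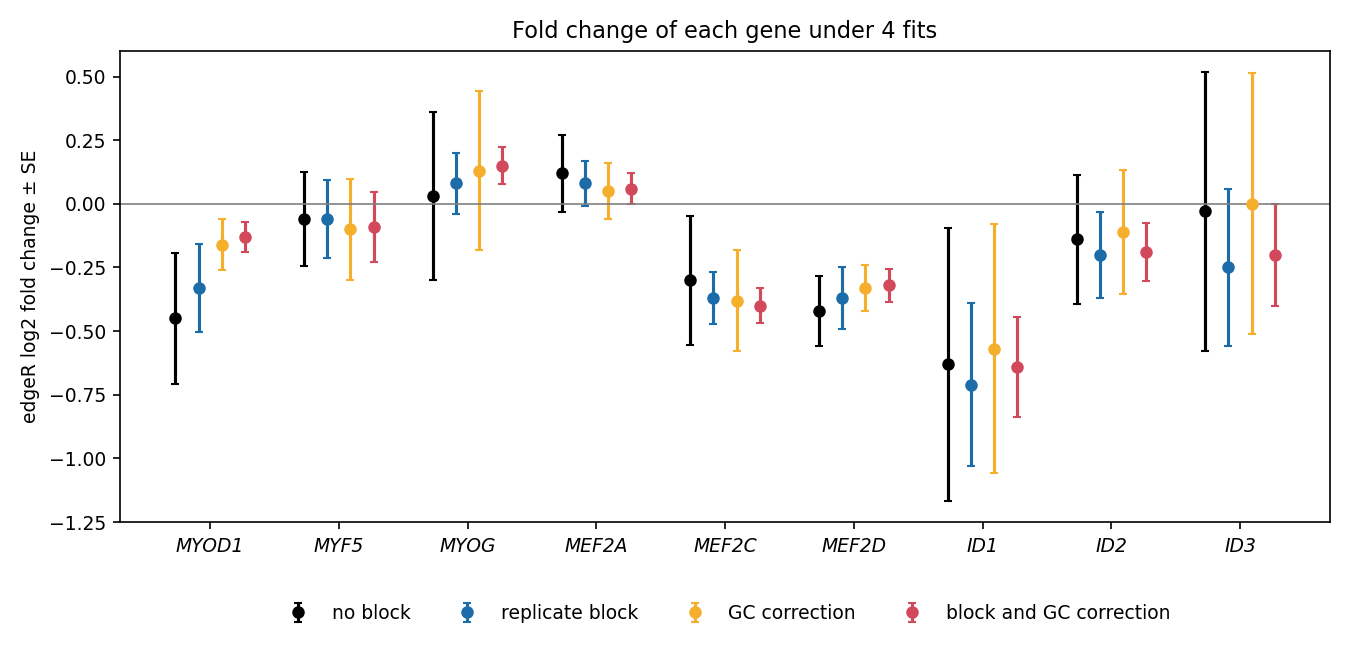
edgeR log2 fold changes, BV6 against untreated, of the 9 tested genes with their standard errors under 4 fits, with and without the replicate block and the GC correction. The estimate of MYOD1 moves from -0.45 to -0.13, whereas MEF2C (-0.3 to -0.4) and MEF2D (-0.42 to -0.32) stay below 0 with smaller errors.

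Of the 9 genes, ID1 and ID3 had the widest spread between untreated samples. ID1 (chromosome 20, 31605283 to 31606515) had 40.5, 66.6, 34.7 and 17.6 CPM in untreated samples 1 to 4 and 48.1, 9.69 and 19.2 CPM in BV6 samples 2, 3 and 4. Untreated cells alone thus differed 3.78-fold, and the SD of their log2 CPM (0.792) exceeded that of 95.2% of tested genes. BV6 sample 3 was the lowest of all, while the treated samples 2 and 4 lay within the untreated range. The log2 fold change was -0.63 (SE 0.536, 95% interval -1.84 to 0.57, adjusted p = 0.785, edgeR), or -0.71 with the replicate block (adjusted p = 0.464, edgeR).

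ID3 (chromosome 1, 23557926 to 23559501) had 38.7, 63.2, 32.2 and 20.6 CPM in untreated and 75.3, 12.3 and 25.6 CPM in BV6-treated samples. It ranked the samples much as ID1 did, with experiment 2 high and experiment 4 low among the untreated samples and BV6 sample 3 lowest. Its log2 fold change of -0.03 had an interval from -1.26 to 1.19, which covers a more than 2-fold change in either direction. ID2 (chromosome 2, 8678845 to 8684461) varied less, with 27.5, 34.4, 34.1 and 21.5 CPM in untreated and 38.9, 20.9 and 20.3 CPM in BV6-treated samples. Its log2 fold change was -0.14 (95% interval -0.71 to 0.43, adjusted p = 0.906, edgeR). ID2 shares 145 exonic bases with ID2-AS1 on the opposite strand, which had 34 to 88 counts per sample against 1094 to 2187 for ID2.

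Experiment 3 differed from the others for all ID genes. There, the treated sample was lower than its partner by 1.84 for ID1, 1.38 for ID3 and 0.71 for ID2 on the log2 scale, or 3.57-fold, 2.61-fold and 1.63-fold. In experiment 2, BV6 minus untreated was -0.47 for ID1, 0.25 for ID3 and 0.18 for ID2, and in experiment 4 it was 0.12, 0.32 and -0.08. Without BV6 sample 3, the log2 fold changes were -0.24 for ID1, 0.39 for ID3 and 0.02 for ID2. Without BV6 sample 2 in turn, they were -1.46, -1.02 and -0.5. ID1 thus stayed negative, and ID2 and ID3 changed sign, with single libraries. With the replicate block, the log2 fold changes were -0.71 for ID1, -0.25 for ID3 and -0.2 for ID2. With the GC correction and the block they were little changed, at -0.64, -0.2 and -0.19 (adjusted p = 0.0885, 0.655 and 0.403, edgeR). The part of the GC trend of BV6 sample 3 in the differences within experiment 3 was not tested.

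**Figure D4:**
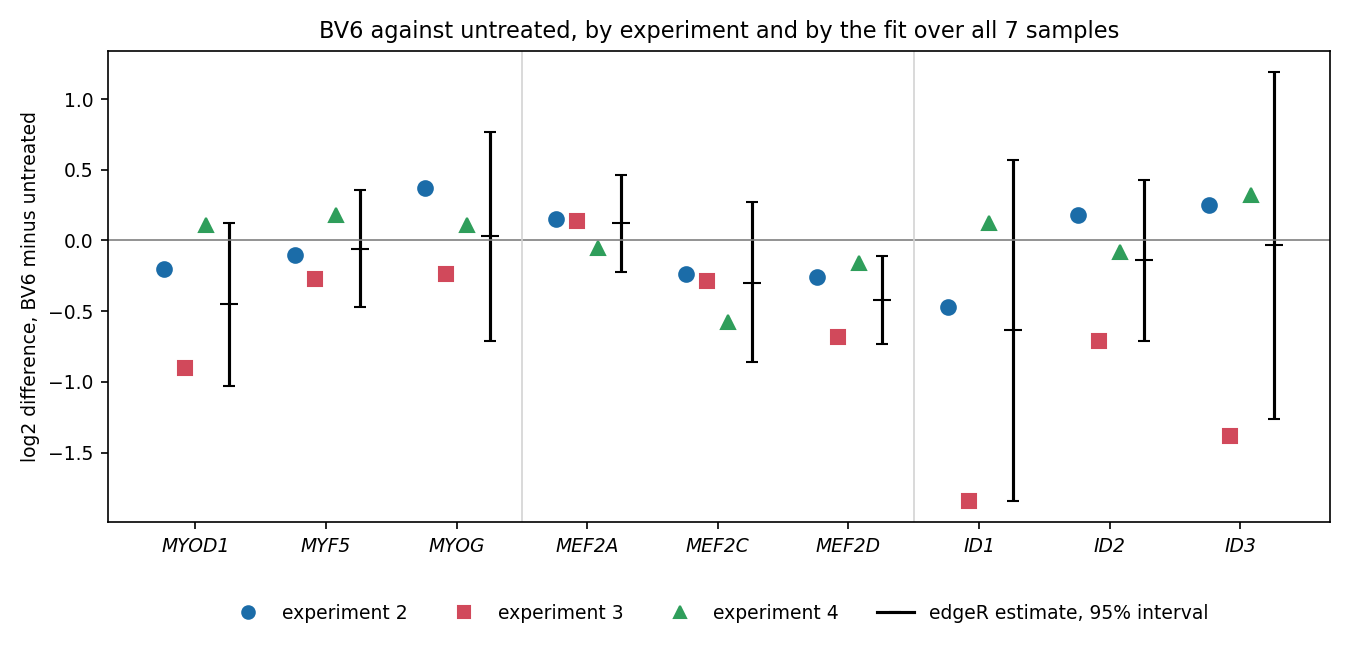
Log2 difference, BV6 minus untreated, within experiments 2, 3 and 4 (colored symbols) beside the edgeR estimate over all 7 samples with its 95% interval (black) for the 9 tested genes. Experiment 3 gives the lowest value for MYOD1, MYF5, MYOG, MEF2D and all ID genes, and only MEF2C and MEF2D have all 3 symbols below 0.

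The 3 tested genes nearest to MYOD1 were found from the log2 CPM centered over the 7 samples, among 23124 genes. These were PPP1R3F, NUMBL and TECPR1, with a root mean square difference of 0.0408 to 0.0549 log2 units, where MYOD1 itself deviated from its mean by 0.441. Among the 9 tested genes themselves, MYOD1 and MEF2D differed by 0.241, ID1 and ID3 by 0.27 and MEF2A and MEF2C by 0.275, whereas ID1 and MYOG differed by 1.27. The log2 CPM behind all these distances were not corrected for GC content. MYOD1 was highest in untreated sample 1 and lowest in BV6 sample 3, whose GC slopes were 0.238 and -0.33 for each 10 percentage points. The part of these slopes in the distances was not tested.

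The wider myogenic network was described with lists of genes read from the same fit. E proteins, the dimer partners of the MYOD family, did not pass the test, with TCF12 at a log2 fold change of -0.18 (adjusted p = 0.744) and TCF3 at -0.38 (adjusted p = 0.768, both edgeR). TCF3 followed experiment 3 as well, since its differences in experiments 2, 3 and 4 were -0.22, -0.82 and 0.24. Another 16 genes were listed by name as repressors of myogenesis, although these data do not show how each acts in these cells. Of these, 13 were tested and 0 called by edgeR. At an unadjusted p below 0.05 there were 5, of which 2 were higher and 3 lower, where 8.39% of all genes passed. HEYL, a Notch effector, had -0.46 (adjusted p = 0.216), and MDFI, which retains MYOD family proteins outside the nucleus, had -0.87 (adjusted p = 0.438, both edgeR). Neither overlapped between the groups, as held for 8.83% of all genes.

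Of 17 upstream myogenic transcription factors, 13 were tested, and only MEOX1 was called, as up-regulated, where 0.45% of all tested genes passed. MEOX1, a homeobox factor of the somites, had 0.208, 0.143, 0.166 and 0.146 CPM in untreated samples and 2.07, 0.995 and 2.23 CPM in BV6 samples 2, 3 and 4. Its log2 fold change was 3.38 (SE 0.349, adjusted p = 0.00493, edgeR), and its call was kept whichever of the 7 samples was left out. Its untreated counts were only 16, 8, 10 and 9, so it passed the filter through the BV6 samples, and it was not tested where 10 counts were required in every sample. LBX1, a factor of migrating muscle precursors, was next with -0.73 (adjusted p = 0.237, edgeR). The median log2 fold change of the 13 genes was -0.19, beside -0.014 over all tested genes.

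Among 23 cofactors and regulators of the MYOD and MEF2 families, HDAC9 was up-regulated. No other gene of this list was called without the block, where 0.45% of all tested genes passed. HDAC9 is a class IIa histone deacetylase that binds MEF2 factors and represses their targets. It had 3.75, 4.42, 4.6 and 5.34 CPM in untreated and 23, 18.1 and 13.6 CPM in BV6-treated samples, without overlap. The log2 fold change was 2.01 (SE 0.201, adjusted p = 0.00446, edgeR), and its call too was kept whichever of the 7 samples was left out. CCND3, a cyclin linked to muscle differentiation, had -0.72 (adjusted p = 0.231, edgeR). With the replicate block, MYOCD, a coactivator of serum response factor named here after its values were seen, passed as well (log2 fold change 1.36, adjusted p = 0.0121, edgeR). The block thus called 2 of the 23, beside 0.943% of all tested genes.

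Of 41 known targets of the MYOD and MEF2 families, 39 were tested. None was called by edgeR without the block, but 34 had a negative and 5 a positive log2 fold change, with a median of -0.33. Over all tested genes, 12104 were negative and 11020 positive. At an unadjusted p below 0.05, 8 targets were lower and 1 higher, beside 985 lower and 954 higher of all genes (8.39%). CHRND, a subunit of the muscle acetylcholine receptor, had 250, 188, 269 and 255 CPM in untreated and 130, 145 and 179 CPM in BV6-treated samples. These groups did not overlap, with a log2 fold change of -0.67 (adjusted p = 0.153 without and 0.0368 with the replicate block, edgeR). CHRNG, the subunit of the fetal receptor, had -0.99 (adjusted p = 0.426, edgeR).

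With the replicate block, 4 of the 39 targets were down-regulated, namely CHRND and, named after their values were seen, MYL1, MYL4 and TNNI2, which encode myosin light chains and a fast troponin. Of all tested genes, the block called 0.943%, with 68 lower and 150 higher. MYL1 had 12.5, 7.05, 17 and 21 CPM in untreated samples 1 to 4 and 3.74, 7.76 and 10.1 CPM in BV6 samples 2, 3 and 4. Its groups overlapped, but it was lower in every experiment, by 0.91, 1.13 and 1.05 on the log2 scale (blocked log2 fold change -1.04, adjusted p = 0.0141, edgeR). The median difference of the 39 targets was -0.25, -0.57 and -0.14 in experiments 2, 3 and 4, and 17 of them (43.6%) were lower in all 3, beside 17.8% of all tested genes. Their median GC content was 56.7%, against 48.2% for all tested genes, and with the GC correction their median was -0.26, with 32 lower. With both the block and the GC correction, 15 were called lower and 3 higher, beside 605 lower and 588 higher of 17931 genes (6.65%). Without BV6 sample 3, the median was -0.22, with 30 lower. Whether these targets differ from other genes as a group was not tested.

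**Figure D5:**
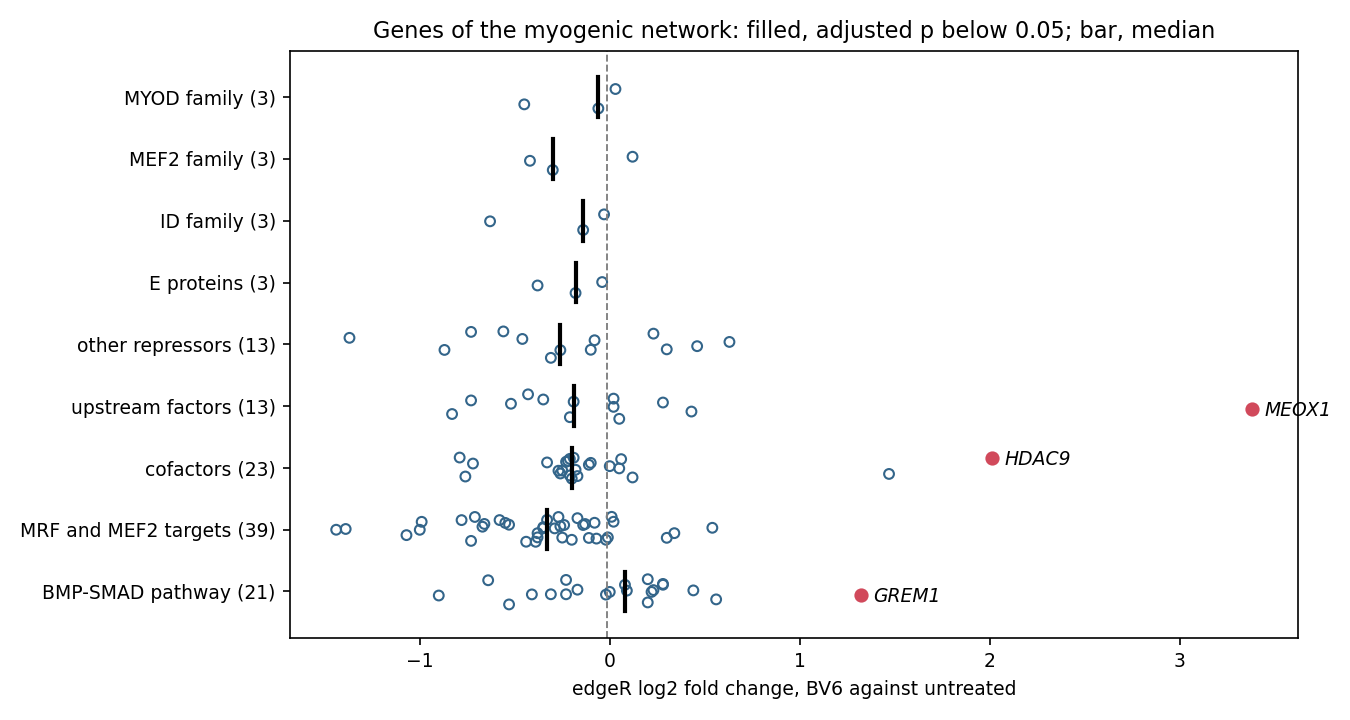
edgeR log2 fold changes, BV6 against untreated, of the tested genes of the 3 families and of 6 lists of related genes, with the number tested in brackets. Filled points have an adjusted p below 0.05 (HDAC9, MEOX1 and GREM1), bars are list medians, and the dashed line is the median of all tested genes (-0.014).

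BMP ligands signal through SMAD proteins and are the best known inducers of ID genes. Of 24 genes of this pathway, 21 were tested, and only GREM1 was called, as up-regulated, where 0.45% of all tested genes passed. GREM1, a secreted BMP antagonist, had 24.2, 28.9, 19.2 and 22.3 CPM in untreated and 58.6, 55.9 and 62.1 CPM in BV6-treated samples. Its log2 fold change was 1.32 (SE 0.143, adjusted p = 0.00574, edgeR). BV6 minus untreated was 1.02, 1.54 and 1.48 in experiments 2, 3 and 4, and the call was kept whichever sample was left out. NOG, another BMP antagonist, had -0.9 (adjusted p = 0.343, edgeR). The median log2 fold change of the 21 genes was 0.08, with 12 higher and 9 lower.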

How the data were processed

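Raw gene counts of 7 RH30 libraries were deposited. The authors made these counts from stranded poly(A) libraries sequenced in paired-end mode, mapped to GRCh38 with STAR 2.6.1d (per the submitters' processing notes) and counted with a union model of Ensembl isoforms. The counting program and its use of strand are not given in the sources used here. From the counts, edgeR 4.0.16 (R 4.3.3) gave fold changes and tests (TMM, filterByExpr, minimum count 10, glmQLFit, glmQLFTest, condition only, two-sided), with Benjamini-Hochberg adjustment over 23124 genes. A call is an adjusted p below 0.05. CPM refer to TMM-normalized libraries, log2 CPM have a prior count of 2, and 3 counts correspond to 0.0389 to 0.0557 CPM, which covers counting error only. Intervals are from the edgeR estimate and its standard error, derived from the F statistic. The study calls the samples biological replicates, and the labels do not say what was separate, so p-values measure the spread between these samples.

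In the 3 paired experiments, treated and untreated samples shared deviations from the group means (correlations across genes 0.515, 0.322 and 0.197), where unmatched pairs had -0.352 to 0.132. With untreated sample 1 in the mean, the value of experiment 4 was 0.085, below that of untreated sample 4 with BV6 sample 3 (0.261), so its pairing is the weakest. The pairing comes from a shared tag in the titles. Lengths and coordinates are from GENCODE release 44 (GRCh38), matched for 37180 of 57189 genes. The tests were tried on simulated counts that held no effect of the experiment. There, edgeR found 93 of 100 genes changed by 2 on the log2 scale and 54 of 100 changed by 1, with 13 false calls. With the block it found 85 and 44, with 17 false calls, and DESeq2 found 94 and 69, with 57 false calls. A missing call alone therefore does not exclude a change of 1 on the log2 scale. Without the block, the 95% intervals of MYOD1 (-1.03 to 0.12), ID1 (-1.84 to 0.57) and ID3 (-1.26 to 1.19) reached such a change. Those of MYF5 (-0.47 to 0.36), MYOG (-0.71 to 0.77) and MEF2A (-0.22 to 0.46) did not. Nor did those of MEF2C (-0.86 to 0.27), MEF2D (-0.73 to -0.11) and ID2 (-0.71 to 0.43). Alternatives were DESeq2 1.42.0, limma-voom (limma 3.58.1), RLE factors, other filters on low counts, the replicate block, the block with a GC correction (loess per library) and leaving out each sample. The GC correction without the block was added after seeing the data.

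The genes and lists were chosen with earlier results of these data known. Named genes are the 10 genes, in each list the called genes and the 2 with the smallest p, the 3 genes nearest to the leader of each family (those of MEF2A and ID1 are not reported here), the markers and the genes that check the treatment. The check genes BIRC3, NFKBIA, NFKB2 and TNFAIP3 were called in all 4 cases.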

Additional observations from a re-analysis of the deposited data

Results flagged for a closer look

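MYOD1 had 474 CPM in untreated sample 1 against 293 to 311 CPM in the other 3 untreated samples, a gap that filled 0.899 of the range of the group (above Dixon's 95% critical value for 4 samples). It was the only one of 22 genes examined in this way, and chance alone gives about 1 in 20 groups such a gap. Untreated sample 1 also had the steepest rise of log2 CPM with GC content, 0.238 for each 10 percentage points. MYOD1 transcripts have 65.6% GC, and the part of this trend in the gap was not tested. Without this sample, the log2 fold change of MYOD1 was -0.26.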

How the results depend on the processing

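Calls among the 9 tested genes stayed at 0 in every fit but 1, the replicate block with the GC correction, which called 2 (MEF2C and MEF2D). The number of all genes called was 104, and it was 427 with DESeq2, 242 without a filter on low counts, 218 with the replicate block and 1193 with the block and the GC correction, and 38 to 89 when a sample was left out. With the block and the GC correction, 1 of the E proteins, 4 of the other repressors, 4 of the upstream factors, 6 of the cofactors, 18 of the MYOD and MEF2 targets and 3 of the BMP pathway were called. With DESeq2 these were 2 upstream factors, 3 cofactors, 1 target and 1 gene of the BMP pathway. With the block alone, 1 upstream factor, 2 cofactors, 4 targets and 1 gene of the BMP pathway were called. Without a filter there were 1 upstream factor, 1 cofactor, 1 target and 1 gene of the BMP pathway. Requiring 10 counts in every sample left out MEOX1, so 0 upstream factors were called. Leaving out 1 sample reversed the sign for MYF5 (-0.16 to 0.1), MYOG (-0.35 to 0.26), ID2 (-0.5 to 0.02) and ID3 (-1.02 to 0.39), all without a call. The cause of these changes was not tested. Dividing by the longest transcript moved the shares of MEF2C to 27.6%, MEF2D to 28.3%, ID1 to 35.9% and ID3 to 46.2%. The replicate block changed no call among the 9 genes. MYF6 entered only DESeq2, which gave it no adjusted p, and edgeR without a filter (adjusted p = 0.787).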
